A study of Oryza sativa with 12 samples.

Results

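Clusters of IDD7 sites in the rice genome were examined, where a cluster is a run of 3 or more sites in which each lies at most 2000 bp from the next. IDD7 (OsIDD7) was tested by DNA affinity purification sequencing (DAP-seq), in which a tagged transcription factor captures fragments of purified genomic DNA in a tube. The factor meets naked DNA, without nucleosomes. Members were chosen by the positions of the called summits alone: a list A summit was shared when a list B summit lay within 250 bp, and shared summits on chromosomes 1 to 12 were joined to neighbours at most 2000 bp away. This gave 479 member sites in 149 clusters, out of 15587 shared sites, so 3.07% of shared sites were members. The remaining shared sites were 2394 in chains of 2 and 12714 with no shared neighbour within 2000 bp. Shared sites were 56.8% of the list A summits and 63.1% of the list B summits on these chromosomes.

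The series has 12 libraries: HaloTag-IDD7 was compared with HaloTag-GFP (green fluorescent protein) as the control, each protein with biological replicates 2, 3 and 4 run as technical replicates A and B. Both proteins were made in a wheat germ extract and incubated for 1 h with the same kind of library, genomic DNA of Oryza sativa cultivar Nipponbare sheared to about 250 bp. All libraries shared the plant background: roots colonized above the labelled threshold by Rhizophagus irregularis, an arbuscular mycorrhizal fungus, with 25 uM phosphate, taken 7 weeks after inoculation. Each deposited IDD7 list pools 3 biological replicates of 1 technical replicate, with GFP entering through the peak calling. The 2 lists measure repeatability between technical pools, not between plants, and a background region called in each pool would also count as a shared site. The lists held 27495 summits (A) and 24744 summits (B), with no peak height or read depth, so neither the strength of a site nor its counting error could be given.

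IDD proteins are plant transcription factors with a conserved set of zinc fingers, the indeterminate domain, through which they contact DNA. In Arabidopsis, members such as JACKDAW and MAGPIE act in root patterning together with GRAS proteins (SHORT-ROOT and SCARECROW), and others bring DELLA proteins, the repressors of gibberellin signalling, to DNA. In rice, the IDD protein RID1 controls the switch to flowering and LPA1 shoot gravitropism. GRAS and DELLA proteins also act in arbuscular mycorrhizal symbiosis. Several sites for 1 factor close together form a homotypic cluster, an arrangement known from many regulatory regions. Genome sequence and gene models of the lists' build were not used here, so no gene or motif is assigned to a cluster, and coordinates are the 1-based summit positions of list A in the build of the lists, which is not named in the sources used here.

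Most clusters were small. There were 123 clusters of 3 sites, 20 of 4 sites and 6 of 5 sites, and no chain held 6. For a description of what local density alone gives, each shared summit was moved by up to 50 kb either way in 1000 placements. The observed 149 clusters stood against a mean of 111.8 in the placements, with a lowest of 81 and a highest of 140, a ratio of 1.33. The excess grew with size. Chains of 2 numbered 1197 against a mean of 1114.3 (ratio 1.07), clusters of 3 numbered 123 against 101.1 (1.22), clusters of 4 numbered 20 against 9.62 (2.08), and clusters of 5 numbered 6 against 1.00 (6.02). For clusters of 3, 4 and 5 taken 1 size at a time, the observed number lay within the range of the placements, which reached 133, 23 and 6. Clusters of 4 or more numbered 26, against a range of 2 to 25. No p-value is attached, because the rule that chose the members used these same positions.

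**Figure D1:**
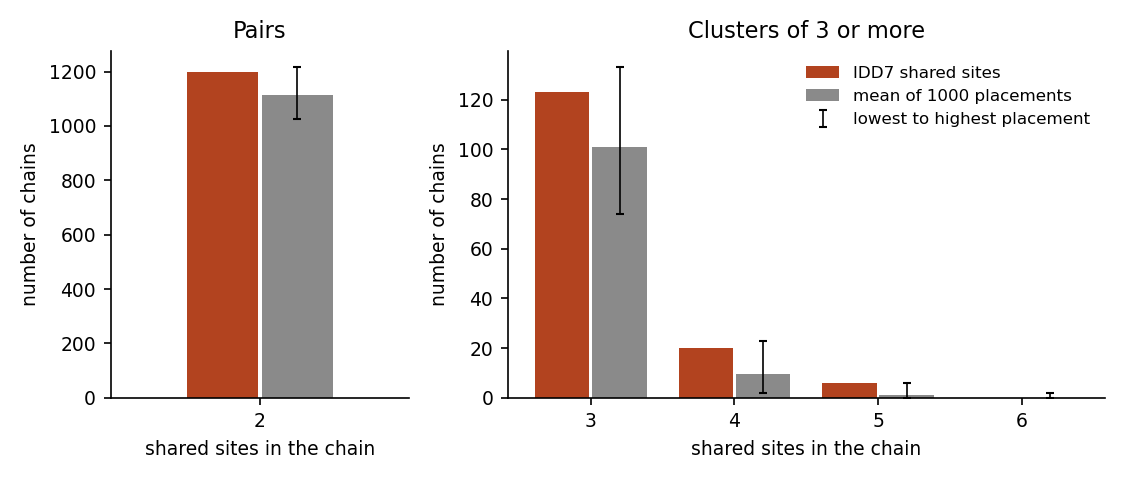
Number of chains of shared IDD7 sites (y axis) by the number of sites in the chain (x axis), for the data and for 1000 placements that moved each site by up to 50 kb; bars show the count or the placement mean and whiskers the lowest and highest placement. The data had 1197 chains of 2, 123 of 3, 20 of 4 and 6 of 5, above the placement mean at each of these sizes.

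The ratio depends on how closely sites may fall. No 2 neighbouring shared summits lay under 350 bp apart, whereas moved summits could land at any distance. When moved summits under 350 bp from the preceding one were dropped, 98.4% of summits were left and the mean fell to 77.3 clusters (range 53 to 109), a ratio of 1.93. It also depends on the reach of the move. With moves of up to 10 kb the placements held a mean of 145.7 clusters (range 114 to 181, ratio 1.02), and with the same move and the 350 bp limit a mean of 101.3 (range 75 to 131, ratio 1.47). Both settings with the 350 bp limit were chosen after the data were seen. Dropping moved summits lowers the number of clusters in the placements by construction, so these settings are not separate support for an excess. Without the 350 bp limit, the observed number lay above the highest placement with moves of up to 50 kb. With moves of up to 10 kb it lay within the placement range, close to the mean. With the limit it lay above the highest placement for both moves.

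Clusters spanned a few kilobases. From first to last summit, clusters of 3 had a median span of 2355 bp (middle quartiles 1866 to 2704 bp, n = 123), with 979 bp as the shortest and 3837 bp as the longest. Clusters of 4 had a median of 3329 bp (range 2051 to 4896 bp, n = 20), and clusters of 5 a median of 4835 bp (range 3609 to 5626 bp, n = 6). Over all clusters the density within the span was a median of 1.26 sites per kb. In the placements the median span of 3-site clusters averaged 1965 bp and never exceeded 2270 bp. For clusters of 4 and 5 the observed medians lay within the placement ranges of 1633 to 4723 bp and 813 to 6860 bp. The placements also held gaps under 350 bp, absent from the data, which shorten their spans by construction.

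The spacing inside clusters was broad, with no sites closer than 350 bp. The 330 gaps between neighbouring sites had a median of 1087 bp, with middle quartiles at 787 and 1519 bp (SD 452), and this median lay within the placement range of 755 to 1150 bp. Only 13 gaps were under 500 bp, in 12 clusters, against a placement mean of 60.9 (range 35 to 88). From 501 to 750 bp there were 62 gaps against 30.2 (range 15 to 50), and from 751 to 1000 bp there were 69 gaps against 29.7 (range 13 to 51). Both classes lay above every placement. Longer classes of 250 bp held 44 to 50 gaps each, against means of 28.1 to 29.3. By count, the gap classes thus fell short of placement below 500 bp and exceeded it most between 501 and 1000 bp. The placements held fewer clusters (mean 111.8 against 149) and so fewer gaps in all, some of them under 350 bp. Counts were not scaled for this, so an excess in a class is not a preferred spacing. In 23 clusters every gap was at most 1000 bp. The fragments were about 250 bp long and each interval is 500 bp wide, so how far peak calling can resolve 2 sites under 500 bp apart was not tested.

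**Figure D2:**
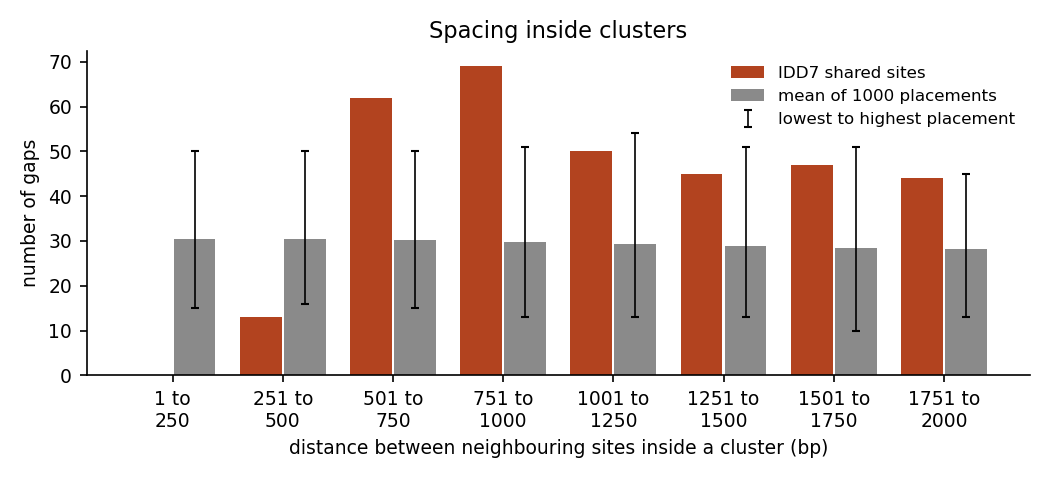
Number of gaps between neighbouring sites inside clusters (y axis) by gap length in classes of 250 bp (x axis), for the data and for 1000 placements within 50 kb; whiskers show the lowest and highest placement. No gap was under 251 bp, 13 lay from 251 to 500 bp, and the 62 and 69 gaps of the next classes exceeded every placement.

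The evenness of spacing in 3-site clusters varied widely. The longer gap was a median of 1.48 times the shorter (middle quartiles 1.20 and 1.99, n = 123), under 1.5 times in 63 clusters and at least 2 times in 30. The most even was close to equal, at 1.02, and the most uneven had a ratio of 4.08. Among all neighbouring shared sites, classes of 50 bp between 500 and 1999 bp held 35 to 61 gaps each, except that from 950 to 999 bp, which held 75. That class held 16 gaps inside clusters, against 17 in the class before it and 15 in the class after it.

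The 2000 bp limit cut through a continuous range. In 19 clusters the longest gap was within 100 bp below the limit, and 16 pairs of adjoining chains that would together have made 3 or 4 sites lay within 100 bp above it. Within 200 bp the counts were 35 and 32.

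The 6 clusters of 5 sites lay on 5 chromosomes, and all were at least 7.35 Mb from a chromosome end. The tightest was on chromosome 7 from 17734590 to 17738199, a span of 3609 bp with gaps of 435, 670, 1547 and 957 bp. All 5 of its summits had a partner in list B within 37 bp. On chromosome 5 a cluster from 20703927 to 20708019 (4092 bp) had gaps of 1209, 576, 586 and 1721 bp, with 3 inner sites almost evenly placed. On chromosome 3 the cluster from 18078550 to 18083112 (4562 bp) had gaps of 1424, 1612, 836 and 690 bp, and its partners lay within 24 bp. Summits called in only 1 list were absent from these 3 clusters and from the next 2. The cluster on chromosome 10 from 7351083 to 7356190 (5107 bp) had gaps of 1127, 1370, 1987 and 623 bp. Chromosome 7 held a further one from 12275279 to 12280707 (5428 bp), whose gaps of 692, 1854, 1963 and 919 bp were short at both edges and long in the middle. The longest of all 149 clusters was on chromosome 12 from 12813072 to 12818698 (5626 bp), with gaps of 971, 1482, 1996 and 1177 bp, and it contained 1 summit found in list A only. Its longest gap of 1996 bp was just inside the limit.

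**Figure D3:**
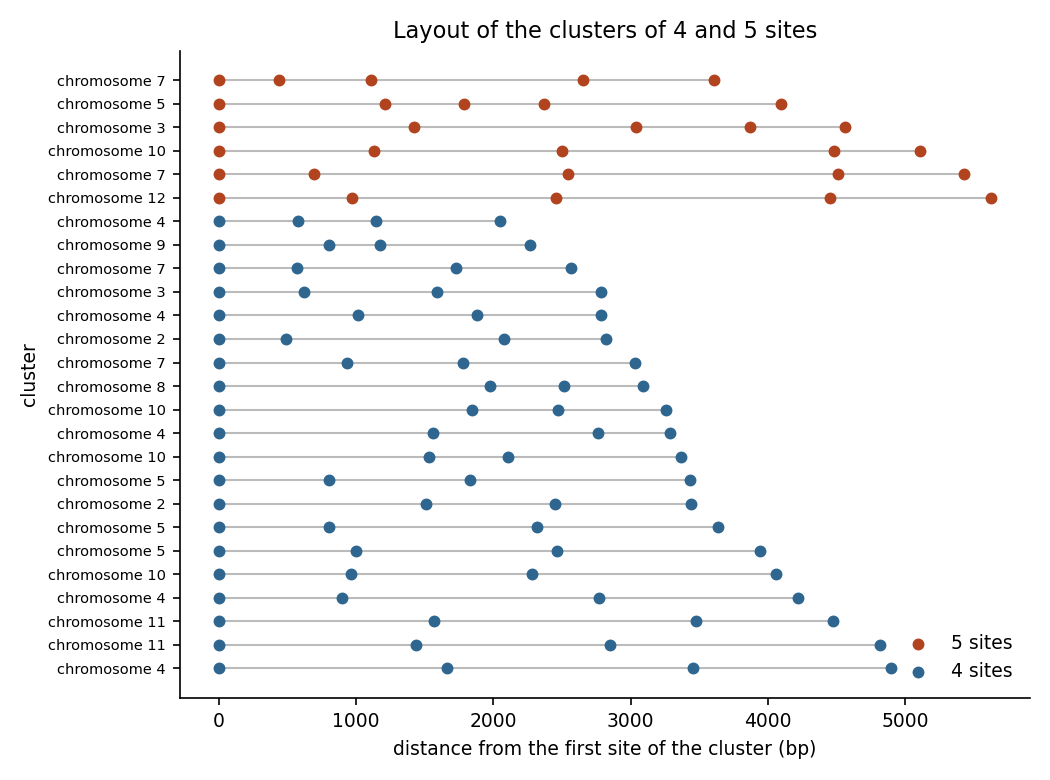
Layout of the 26 clusters of 4 or 5 sites: each row is a cluster, labelled by chromosome, and each point a shared IDD7 site at its distance in bp from the first site of the cluster (x axis). Spans run from 2051 to 4896 bp with 4 sites and from 3609 to 5626 bp with 5 sites, and the points follow no common spacing.

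Among the clusters of 4, the tightest was on chromosome 4 from 3621812 to 3623863 (2051 bp), with gaps of 575, 571 and 905 bp. Chromosome 9 followed with a cluster from 7028082 to 7030351 (2269 bp), whose gaps of 806, 370 and 1093 bp included one near the shortest seen. On chromosome 7 a cluster from 8997301 to 8999869 spanned 2568 bp and held 1 list A only summit. On chromosome 3 the cluster from 32226391 to 32229174 spanned 2783 bp, with gaps that widened along the chromosome from 618 to 972 and 1193 bp. Chromosomes 2, 8 and 11 had no cluster above 4 sites, and their tightest with 4 lay at 19775264 to 19778081 (2817 bp), 16674375 to 16677462 (3087 bp) and 11488054 to 11492528 (4474 bp). In the cluster on chromosome 2 a partner summit lay 219 bp away, near the 250 bp allowed, so that site was placed less precisely than most. Of the 26 clusters of 4 or 5, 6 lay within 5 Mb of a chromosome end.

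Chromosomes 1 and 6 held no cluster larger than 3. Their tightest examples were compact: 30658249 to 30659230 on chromosome 1 (981 bp, gaps of 631 and 350 bp) and 14953793 to 14954857 on chromosome 6 (1064 bp, gaps of 562 and 502 bp). The shortest of all clusters was on chromosome 4 from 10646515 to 10647494, where 3 sites fell within 979 bp at gaps of 494 and 485 bp. The longest 3-site cluster, on chromosome 5 from 23520199 to 23524036, was nearly as even, with gaps of 1939 and 1898 bp.

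Clusters occurred on all 12 chromosomes but in unequal numbers. Chromosome 4 had the most, 22 (6.20 per 10 Mb), followed by chromosome 3 with 21 (5.77 per 10 Mb). Chromosomes 5 and 12 had 15 each, and chromosomes 9 and 11 had 13 each. The fewest were on chromosome 10, with 5 (2.16 per 10 Mb). The share of shared sites that were members averaged 3.11% (SD 1.10, n = 12 chromosomes). It was highest on chromosome 4, 4.42% (95% Wilson interval 3.52 to 5.54%), and lowest on chromosome 2, 1.69% (1.16 to 2.47%). These intervals cover counting error only and treat members of a cluster as independent, so they are too narrow. Shared sites were densest on chromosomes 4 and 3, with 45.3 and 45.2 per Mb and 4.42% and 4.01% members. Chromosome 5 had 39.5 shared sites per Mb and 4.23% members, and chromosome 1 had 42.3 per Mb and 1.81%. Against the placements, 8 of 12 chromosomes stood above their mean, with ratios from 0.73 on chromosome 2 to 1.96 on chromosome 5, and all 12 lay within the range of their placements. The differences between chromosomes were not tested.

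Large clusters were also unevenly spread. On chromosome 10, 4 of 5 clusters had 4 or 5 sites, on chromosome 7, 4 of 9, on chromosome 5, 4 of 15, and on chromosome 4, 5 of 22. Chromosome 3 had 2 of 21, and chromosomes 1 and 6 had 0 of 11 and 0 of 9. With so few clusters per chromosome this is a description.

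Members were a smaller share of shared sites near chromosome ends than in the interior. In the interior, 3.77% of shared sites were members (SD 1.26, n = 12 chromosomes), against 1.81% (SD 1.60) in the outer 5 Mb. The difference of 1.96 percentage points was in this direction on 10 of 12 chromosomes. With chaining at 1000 bp the interior had 0.80% and the outer 5 Mb 0.42%. No p-value is given, because membership rests on the same positions. Pooled, the interior held 121 clusters, or 4.78 per 10 Mb, and the outer 5 Mb held 28, or 2.33 per 10 Mb. Chromosome 5 had the largest difference, with 5.50% in the interior and 1.16% in the ends. Chromosomes 8 and 10 had 0 members among 344 and 410 outer shared sites, and a count of 0 allows up to 3 clusters, that is 9 members at the smallest size, or shares of up to 2.62% and 2.20%. Chromosomes 1 and 3 went the other way, with 1.67% in the interior and 2.33% in the ends on chromosome 1, and 3.71% and 4.80% on chromosome 3.

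Shared sites as a whole were also denser away from the ends, which by itself brings sites together. From 38.5 shared sites per Mb in the last 2.5 Mb, density went up to 44.1 per Mb at 10 Mb or more from an end. The placements keep this trend. In them 2.36% of interior sites and 1.92% of outer sites were members on average, against 3.57% and 1.92% observed when all chromosomes were pooled. Against these placements, with moves of up to 50 kb, the interior stood above the highest (3.13%) and the ends matched the mean. The placements also held distances under 350 bp, absent from the data. The 350 bp limit and the 10 kb move, which changed the ratio over all clusters, were not applied by location. By distance, the member share was 1.25% within 2.5 Mb of an end, 2.57% from 2.5 to 5 Mb, 3.00% from 5 to 7.5 Mb, 4.79% from 7.5 to 10 Mb and 3.27% beyond. Only the class from 7.5 to 10 Mb lay above its highest placement (4.12%). Chromosome length and arm position are mixed in these classes.

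**Figure D4:**
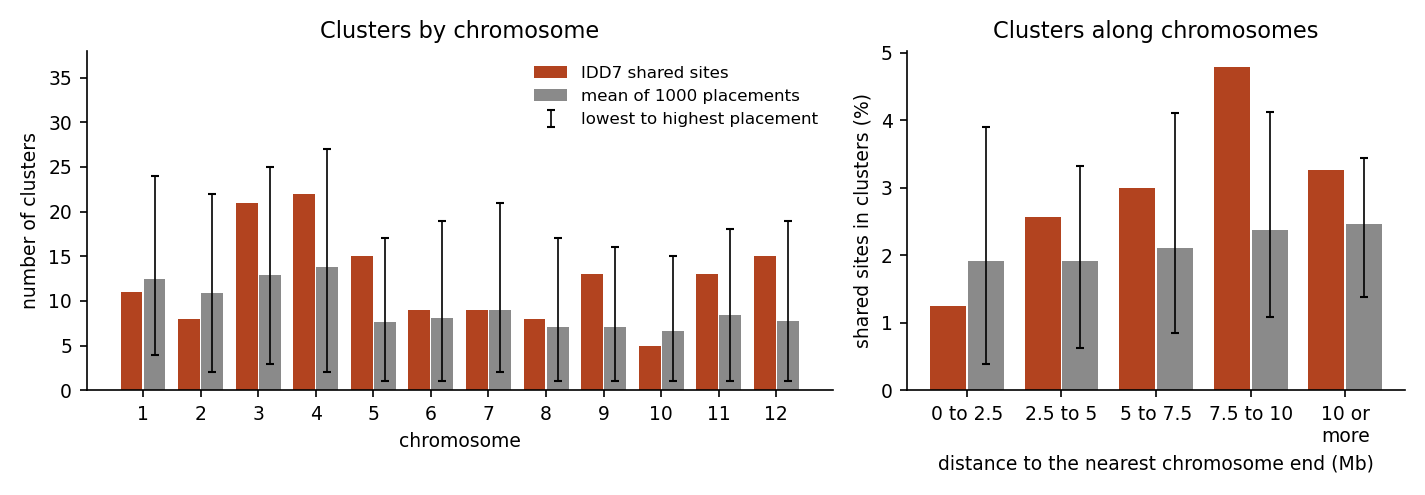
Left, number of clusters (y axis) on each of the 12 chromosomes (x axis); right, percentage of shared sites that were cluster members (y axis) by distance in Mb to the nearest chromosome end (x axis), with the mean and the lowest to highest of 1000 placements beside each. Chromosome 4 has 22 clusters and chromosome 10 has 5, and the member share peaks at 4.79% from 7.5 to 10 Mb.

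Clusters lay near one another in places. They occupied 118 of 379 windows of 1 Mb, incomplete windows included, and 23 windows held 2 or more, against a placement mean of 14.9 (range 4 to 26). The richest windows held 4 clusters each, on chromosome 11 from 12000001 to 13000000, among 37 shared sites, and on chromosome 12 from 12000001 to 13000000, among 51. The median distance between neighbouring clusters was 1156 kb (middle quartiles 597 and 2926 kb, n = 137). In 12 cases neighbouring clusters were within 100 kb of each other, against a placement mean of 4.15 (range 0 to 12). The placements held fewer clusters, a mean of 111.8 against 149, which by itself lowers their counts of shared windows and of close neighbours. No allowance was made for this.

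These 12 cases formed 9 groups, of which 3 had 3 clusters. On chromosome 4, clusters of 4, 3 and 3 sites followed each other within 84.2 kb (10602195 to 10686375), and 10 of the 16 shared sites there were cluster members. On chromosome 9, 3 clusters of 3 lay within 59.0 kb (13451137 to 13510142), and all 9 shared sites of that stretch were members. On chromosome 11, 3 clusters of 3 lay within 141.0 kb (12643020 to 12784016), among 16 shared sites. The closest neighbours, on chromosome 6 between 8521922 and 8533496, were 7.29 kb apart. Chromosome 11 had 3 of the 9 groups, including a pair with 3 and 4 sites from 11475935 to 11492528. These groups were chosen after the distances were seen.

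Long stretches had no cluster although shared sites continued through them. On chromosome 8 the first 10.4 Mb held none among 364 shared sites. Chromosome 12 had none from 17862907 to its end, 9.66 Mb with 286 shared sites. On chromosome 10 an internal stretch of 9.41 Mb, from 8778717 to 18185667, held 364 shared sites and no cluster. The shortest of the chromosomes' longest stretches was 4.54 Mb, on chromosome 3. No placement values were given for such stretches, so whether they are longer than local density gives was not tested.

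The 2 pools placed cluster members about as closely together as other shared sites. How near the partner summit lies was not used by the rule beyond the 250 bp limit. The median distance to the list B partner was 16 bp in clusters (n = 479), 16 bp in chains of 2 and 15 bp for single sites. Chromosome medians averaged 16.2 bp for members (SD 5.21, n = 12 chromosomes) and 15.7 bp for other shared sites (SD 1.14). The difference of 0.50 bp did not pass the test (exact two-sided permutation test by sign flips of the chromosomes, p = 0.780, adjusted p = 0.780 over 4 tests). Chromosomes are not replicates of the experiment. Members were farther on 6 of 12 chromosomes and nearer on 6. Partners lay within 50 bp for 86.2% of members (95% Wilson interval 82.8 to 89.0%) and for 84.8% of single sites (84.2 to 85.4%). Partners lay over 100 bp away for 4.38% of members and 5.03% of single sites, and in 131 of 149 clusters every partner was within 100 bp.

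Summits called in only 1 list were not used to choose the clusters, and list A only summits were denser around them. They were counted from 2 to 10 kb outside the ends of each chain, with overlapping flanks merged. The flanks of clusters made up 2.37 Mb with 119 list A only summits. By chromosome, list A only summits numbered 5.15 per 100 kb beside clusters (SD 1.24, n = 12 chromosomes), against 3.60 per 100 kb (SD 0.15) beside single shared sites. The density was higher beside clusters on 12 of 12 chromosomes, by 1.55 per 100 kb (exact two-sided permutation test, p = 0.00049, the smallest the 12 chromosomes can give, adjusted p = 0.0020). The cluster values ran from 4.17 on chromosome 12 to 8.45 on chromosome 9, and the single-site values from 3.31 to 3.83, so the sets did not overlap. Chains of 2 were between, with 3.98 per 100 kb. With flanks ending at 5 kb the difference was 1.12 and did not pass (exact p = 0.134). The rule chose stretches where shared sites lie close together, and shared sites were also denser in the same flanks (pooled, 6.76 against 4.94 per 100 kb). The test therefore cannot separate list A only summits from a higher local density of all summits. Whether they exceeded that density was not tested.

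The same comparison did not pass for list B only summits. They numbered 3.29 per 100 kb beside clusters (SD 1.49) and 2.69 per 100 kb beside single sites (SD 0.21), higher on 8 of 12 chromosomes (difference 0.60, exact two-sided permutation test, p = 0.194, adjusted p = 0.258). Chromosome 7 had none beside its 9 clusters, and without it the difference was 0.91 (exact p = 0.027, unadjusted). Leaving out any other chromosome gave differences of 0.43 to 0.73, none of which passed (exact two-sided permutation test, unadjusted p = 0.137 to 0.345). Whether list A and list B differ in this respect was not tested. Shared sites themselves numbered 6.76 per 100 kb in the flanks of clusters and 4.94 beside single sites, pooled over chromosomes. Copy number, assembly gaps and mappable sequence around clusters were not examined, and their part in these densities was not tested.

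**Figure D5:**
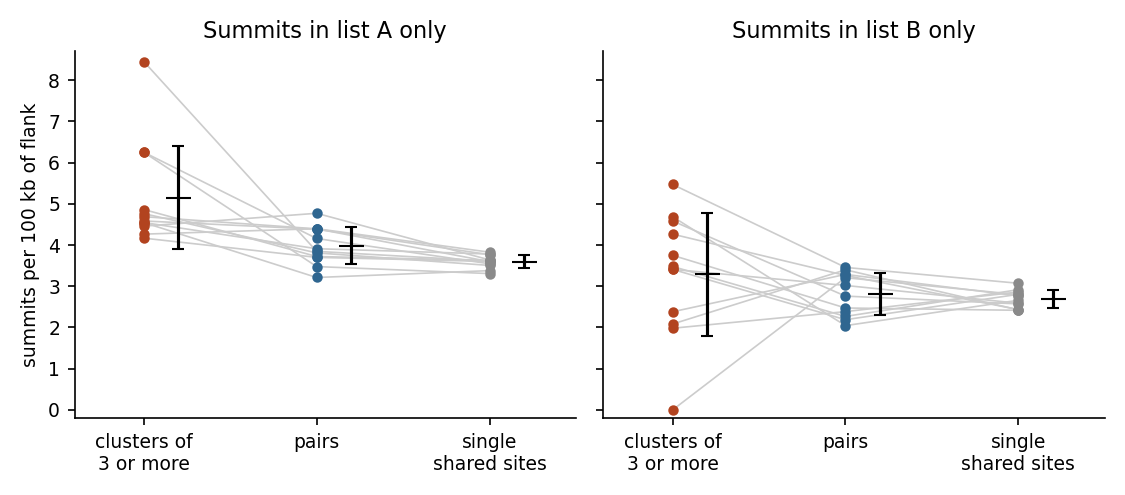
Density of summits called in list A only (left) and list B only (right), per 100 kb of flank from 2 to 10 kb outside the chain (y axis), beside clusters, chains of 2 (pairs) and single shared sites (x axis); points are the 12 chromosomes, grey lines join a chromosome, and bars give mean and SD. List A only values beside clusters (4.17 to 8.45) lie above all single-site values, whereas list B only values overlap.

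Unmatched summits also fell inside clusters. Of 149 clusters, 130 had no unmatched summit between their first and last site. List A only summits inside numbered 15, in 13 clusters, and list B only summits 6, in 6 clusters. Over 381.0 kb of span this made 3.94 per 100 kb for list A only summits, beside 3.18 over all 12 chromosomes, and 1.57 per 100 kb for list B only summits, beside 2.45. These differences rest on few summits and were not tested.

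Chains of 3 or more also formed in each list taken alone. List A by itself gave 678 chains with 2276 summits, the longest of 9, against a placement mean of 508.5 (range 442 to 590, ratio 1.33). List B gave 505 chains with 1662 summits, the longest of 7, against 383.2 (range 332 to 448, ratio 1.32). Of the list A chains, 194 (28.6%) had at least 3 list B summits along them, and 51 had none. Of the list B chains, 175 (34.7%) had at least 3 list A summits, and 30 had none. Every summit was matched in 106 list A chains (15.6%) and 117 list B chains (23.2%). Over all summits of these chromosomes, a partner was found for 56.8% in list A and 63.1% in list B. These are shares of summits, not of chains. At an equal rate per summit, chains with every summit matched would be the smaller share. Whether matching differs between chains and other summits was not tested. Without peak heights, a site missing from 1 list cannot be told apart from one just under the calling threshold.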

How the data were processed

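Peaks were called with MACS2 relative to GFP, per the labels, and fastp 0.23.2, FastQC, Bowtie2, deepTools and bedtools are named in the submitters' processing notes; the build, the peak threshold and other settings were not stated there. The authors deposited 2 lists of 500 bp intervals holding positions only, 1 for each technical pool of 3 biological replicates; this is neither a count nor a signal, and depth is unknown. The midpoint of each interval was taken as the summit (Python 3.11.15, NumPy 2.4.6, SciPy 1.17.1, pandas 2.3.3). Partners within 250 bp made a summit shared, at its list A position, and neighbours up to 2000 bp apart were chained. ChrSy and ChrUn were left out. Placements moved each summit by an even draw of up to 50 kb, 1000 times, and reflected it at the ends; assembly gaps were not modelled. Chromosome ends were taken from the last interval of either list. Partner distance and unmatched summits in flanks were tested by exact sign-flip permutation over 12 chromosomes. The rule used partner distance only through the 250 bp limit and left unmatched summits out. It chose stretches dense in shared sites, so the flank tests cannot separate unmatched summits from a higher local density of all summits. Benjamini-Hochberg adjustment covered 4 tests, including the planned one of interior against ends, which is given without p because membership rests on position. Shares carry 95% Wilson intervals; the limit for a count of 0 is 3 clusters. Named clusters were those with the most sites (10), the shortest and longest of 3 sites, the largest on each chromosome (ties by shorter span) and the 2 richest 1 Mb windows. The members and rules were chosen with earlier results of these data known. The statistics were tested on simulated data. The gene table supplied belongs to another assembly and was not used.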

Additional observations from a re-analysis of the deposited data

How the results depend on the processing

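Of 84 alternatives, 73 kept direction, side of the threshold or size. Most of the 84 left out 1 chromosome at a time, 12 for each of 4 results, so the total says little about the number of clusters. The 7 alternatives that moved in size all concerned the number of clusters or its ratio to placements. The number of clusters was 33, 325 and 704 with chaining at 1000, 3000 and 5000 bp, and lay between 136 and 185 under other partner rules. The ratio to placements was 1.06 with chaining at 1000 bp, 1.02 with placements within 10 kb, 2.17 when summits under 500 bp apart were dropped from data and placements, and 1.93 when only distances under 350 bp were barred. With chaining at 1000 bp the interior exceeded the ends by 0.38 percentage points, and with flanks to 5 kb list A only summits exceeded by 1.12 per 100 kb (exact p = 0.134); the cause was not tested. Leaving out 1 chromosome at a time gave 1.74 to 2.24 percentage points for interior against ends, 1.25 to 1.65 per 100 kb for list A only and 0.43 to 0.91 for list B only summits, and -0.55 to 1.32 bp for partner distance, negative only without chromosome 7. No paired analysis was possible because each deposited list already merges replicates 2, 3 and 4 and holds no value for any of them; for the same reason none of them could be left out.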

Other observations

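Summits called in only 1 list formed clusters of their own. Chained in the same way, the 11877 list A only summits gave 85 clusters of 3 or more, the largest of 5, against a mean of 49.0 in 1000 placements within 50 kb (range 27 to 74, ratio 1.74). The 9130 list B only summits gave 47 clusters, the largest of 4, against a mean of 23.4 (range 8 to 40, ratio 2.00). Both ratios were above the 1.33 of shared sites, and the differences between the ratios were not tested. Chains of 2 had ratios of 1.04 for list A only, 1.10 for list B only and 1.07 for shared summits. With moves of up to 50 kb, an excess of clusters over the placements was therefore not limited to sites called in both pools. Moves of up to 10 kb, which gave a ratio of 1.02 for shared sites, were not given for summits called in only 1 list.

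Some 3-site clusters had nearly the same layout as another. Both gaps were within 20 bp, in the same or the reversed order, for 10 pairs of clusters among 123, against a placement mean of 4.18 (range 0 to 14). The placements held fewer 3-site clusters, a mean of 101.1 against 123, and so fewer possible pairs. Their gaps also ran below 350 bp and so over a wider range, which lowers matches within 20 bp. No allowance was made for either, so an excess of matching layouts was not tested. Of these 10 pairs, 7 matched in reversed order and 1 lay on a single chromosome. A set of 3 clusters matched one another: chromosome 1 from 36879018 to 36881408 (gaps of 581 and 1809 bp), chromosome 5 from 11350957 to 11353335 (1815 and 563 bp) and chromosome 5 from 24407853 to 24410258 (1826 and 579 bp). A cluster on chromosome 1 (7829945 to 7831473) and another on chromosome 9 (3998534 to 4000060) agreed within 3 bp in both gaps (504 and 1024 bp, against 501 and 1025 bp). Whether these clusters share sequence was not tested. This search was chosen after the gaps had been seen.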
